A study of Homo sapiens with 33 samples.

Results

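Untreated RT112 cells were compared with untreated RT4 cells, 3 arrays against 3 of the 33 arrays of the series, over the 21468 autosomal genes among 22465 genes with 1 symbol. RT112 and RT4 are human urothelial carcinoma lines that carry an FGFR3–TACC3 gene fusion beside wild type FGFR3. The arrays used are those labelled RT112 parental no PD and RT4 parental no PD, where PD is the FGFR inhibitor PD173074, so neither group had received drug. The series was made to follow resistance to this inhibitor, and the untreated parental cells are its starting points. RT112 was grown in RPMI-1640 and RT4 in McCoy's 5A, each with FCS, so medium and cell line cannot be told apart in any difference below. The lines R1, held in PD173074 until resistant and then grown drug-free over 4 to 6 passages (labelled RT112 R1 no PD and RT4 R1 no PD, with 3 arrays each), served as a further comparison of both lines with no array in common. Nothing in the sources says that the 3 arrays of a group came from separate cultures, so p-values measure the spread between these arrays, which may be technical. Each line is 1 established tumour line, and a difference between them belongs to these lines and not to a tumour class.

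FGFR3 is a receptor tyrosine kinase of urothelial cells that signals mainly through RAS, MEK and ERK when it is bound by FGF ligands. Fusion to TACC3 drives the kinase without ligand. Normal urothelium is layered, with basal cells that carry KRT5, intermediate cells that carry KRT13, and umbrella cells whose surface is covered by uroplakins. Transcription factors such as GATA3, PPARG, FOXA1 and ELF3 maintain this luminal programme, and bladder tumours are sorted into luminal and basal-squamous types partly by the same genes.

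Values are the deposited RMA signals on the log2 scale, and 3 values given for a group are in the order of replicates 1, 2 and 3. Differences are RT112 minus RT4 on that scale, with the standard error (SE) and the adjusted p of limma (Benjamini-Hochberg over the 22465 genes), and a gene was called at an adjusted p under 0.01. The medians of the 6 arrays lay between 4.88 and 5.08. The signals were used with no detection call, and where 1 side lies near these medians the true difference may be larger than the one given. Genes with close relatives, among them the keratin, CEACAM, metallothionein, interferon-induced and HLA genes, may share probe signal, and their values are less certain for that reason.

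Both lines carried urothelial markers. Of 14 urothelial markers measured, 11 were above 8 in all 6 arrays, with GATA3 at 12.25, 12.36 and 12.51 in RT112 and 12.40, 12.14 and 12.11 in RT4, PPARG at 9.49, 9.64 and 9.56 in RT112 and 9.46, 9.59 and 9.67 in RT4, and EPCAM, an epithelial adhesion molecule, at 13.38, 13.30 and 13.28 in RT112 and 13.87, 13.68 and 13.51 in RT4. KRT20, a keratin of umbrella cells, was low in both lines at 4.62, 5.69 and 6.11 in RT112 and 4.86, 5.95 and 5.43 in RT4. Markers of other cells were near the array medians, with 1 exception. The mean of 9 fibroblast markers lay between 5.12 and 5.18 in RT112 and between 4.57 and 4.80 in RT4, and 8 of the 9 were under 6 in all 6 arrays. The exception was LUM, at 9.83, 9.75 and 9.51 in RT112 and 5.45, 5.28 and 4.81 in RT4. All 7 endothelial and all 9 immune markers measured were under 6 in the 6 arrays.

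RT4 parental replicate 1 stood apart from replicates 2 and 3. Its mean correlation with its group over all genes was 0.981, against 0.989 and 0.988 for the other RT4 arrays and 0.996 to 0.997 for the RT112 arrays. The mean of 49 proliferation genes was 7.89 in replicate 1 and 10.58 and 10.32 in replicates 2 and 3. In the RT112 arrays this mean lay between 11.55 and 11.72, and in RT4 R1 no PD between 10.82 and 11.10. MKI67, a marker of cycling cells, read 13.56, 13.31 and 13.30 in RT112 and 6.46, 11.26 and 11.68 in RT4, and TOP2A, the topoisomerase of mitotic chromosomes, read 14.64, 14.33 and 14.55 in RT112 and 7.57, 13.18 and 13.48 in RT4. CYP1A1, an enzyme induced through the aryl hydrocarbon receptor, read 5.45, 4.58 and 4.47 in RT112 and 12.10, 4.59 and 4.63 in RT4. ASNS, which makes asparagine and is induced by amino acid shortage, read 6.94, 6.62 and 6.89 in RT112 and 11.89, 10.08 and 7.11 in RT4, so the 3 RT4 arrays differed among themselves here. MKI67, TOP2A, CYP1A1 and ASNS were named after their values were seen. Each count was also made without this array, and the values are given where they differ by more than 1.5 times or change a statement.

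**Figure D1:**
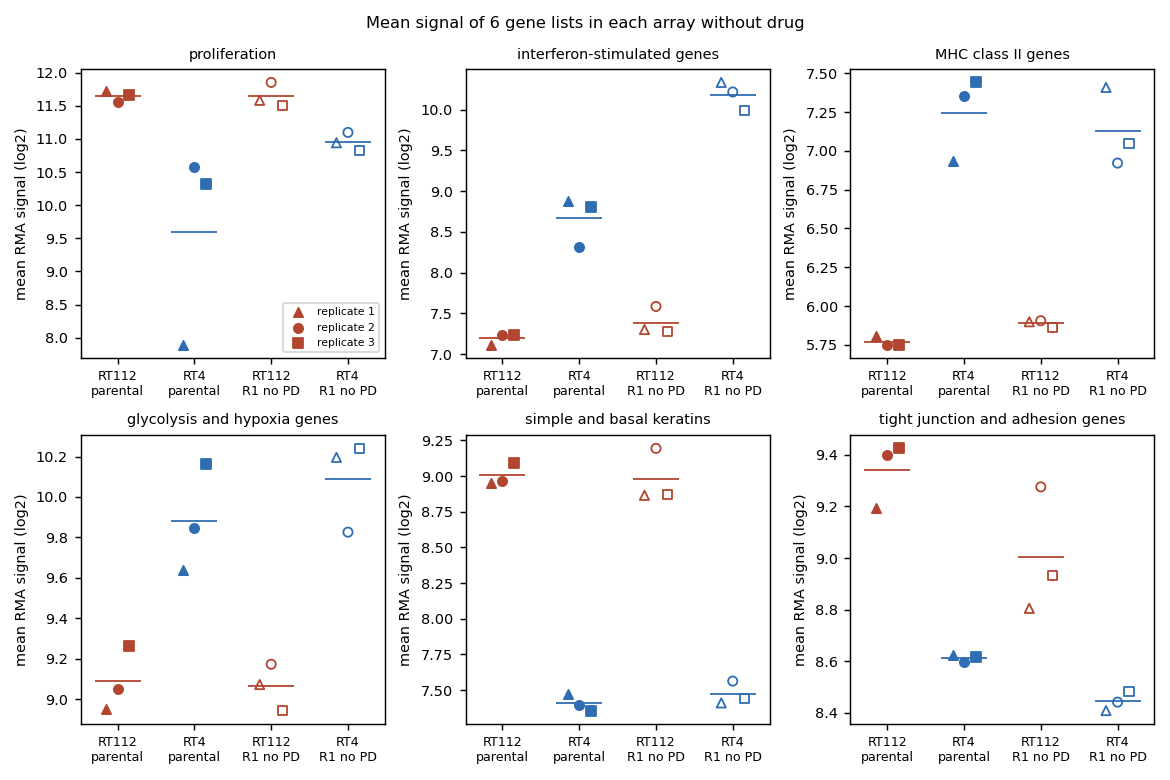
Mean RMA signal (log2, vertical axes, which do not start at 0) of 6 gene lists in each array of the parental (filled) and R1 no PD (open) groups, with the replicate as the symbol and the group mean as a line. RT4 parental replicate 1 is at 7.89 for proliferation, below the 10.58 and 10.32 of the other RT4 parental arrays.

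Both lines differed at many genes. RT112 was higher at 1872 genes (8.72% of the 21468) and lower at 2164 (10.1%). The larger side turned under other scalings, with 2237 higher and 2008 lower after renewed quantile normalization and 2073 and 1902 after centring on array medians. Of the genes called as deposited, 914 were higher and 1288 lower by at least 1 on the log2 scale, and 37 were higher and 78 lower by at least 4. The median difference over all autosomal genes was 0.02. Without RT4 parental replicate 1, 2383 genes were higher (11.1%) and 2895 lower (13.5%). Of the genes called with all arrays, 1780 of the 1872 higher and 2100 of the 2164 lower were called the same way without it, and 0 were called the opposite way. The median SD over genes was 0.10 in RT112 and 0.17 in RT4 (n = 3 each). Of the 218 genes named below, 91 were called higher and 86 lower, most of them chosen for their difference. The background of each list count below is 8.72% higher and 10.1% lower, or 11.1% and 13.5% without RT4 parental replicate 1.

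The largest differences towards RT112 were at KRT13, EMP1, LAPTM5, CEACAM6, KRT4, TFF1, CEACAM5, TFPI2, UPK1B and CAV1. KRT13, a keratin that intermediate urothelial cells carry, though not they alone, read 16.82, 16.87 and 16.93 in RT112 and 7.22, 7.21 and 7.25 in RT4 (log2 difference 9.65, SE 0.08, adjusted p = 2.62e-08), an 802-fold difference in signal. EMP1, a tetraspan membrane protein of epithelia, read 15.12, 15.02 and 14.85 in RT112 and 6.33, 6.01 and 5.82 in RT4 (log2 difference 8.94, SE 0.15, adjusted p = 5.63e-07). LAPTM5, a lysosomal membrane protein best known in blood cells, read 14.86, 13.94 and 14.30 in RT112 and 5.19, 5.71 and 5.82 in RT4 (log2 difference 8.79, SE 0.26, adjusted p = 4.35e-06). CEACAM6, an adhesion molecule of the carcinoembryonic antigen family, read 16.08, 16.25 and 16.28 in RT112 and 8.0, 7.17 and 7.36 in RT4 (log2 difference 8.69, SE 0.21, adjusted p = 2.04e-06), and its relative CEACAM5 read 12.80, 13.56 and 13.45 in RT112 and 7.17, 6.11 and 6.35 in RT4 (log2 difference 6.73, SE 0.31, adjusted p = 2.30e-05). KRT4, the partner of KRT13 in mucosal epithelia, read 12.63, 13.71 and 13.47 in RT112 and 6.37, 6.09 and 6.06 in RT4 (log2 difference 7.10, SE 0.27, adjusted p = 1.10e-05). The groups were far apart at each of these genes, with every RT4 array between 5.19 and 8.0.

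TFF1, a secreted trefoil peptide that protects mucosa, read 12.09, 12.83 and 13.04 in RT112 and 5.39, 5.60 and 6.02 in RT4 (log2 difference 6.98, SE 0.27, adjusted p = 1.18e-05). TFPI2, a Kunitz-type serine protease inhibitor of the matrix, read 11.07, 11.74 and 11.70 in RT112 and 5.07, 5.76 and 5.65 in RT4 (log2 difference 6.01, SE 0.24, adjusted p = 1.26e-05). UPK1B, a uroplakin of umbrella cells, read 16.25, 16.84 and 16.73 in RT112 and 8.88, 11.36 and 11.76 in RT4 (log2 difference 5.94, SE 0.70, adjusted p = 9.26e-04), with RT4 replicate 1 below the other RT4 arrays. CAV1, the coat protein of caveolae, read 11.84, 11.45 and 11.31 in RT112 and 5.53, 5.60 and 5.70 in RT4 (log2 difference 5.92, SE 0.15, adjusted p = 2.24e-06). TSPYL5, named after its values were seen, was below the array medians in RT4 and high in RT112, at 10.10, 9.94 and 10.23 in RT112 and 4.38, 3.94 and 4.59 in RT4 (log2 difference 5.79, SE 0.18, adjusted p = 4.55e-06).

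**Figure D2:**
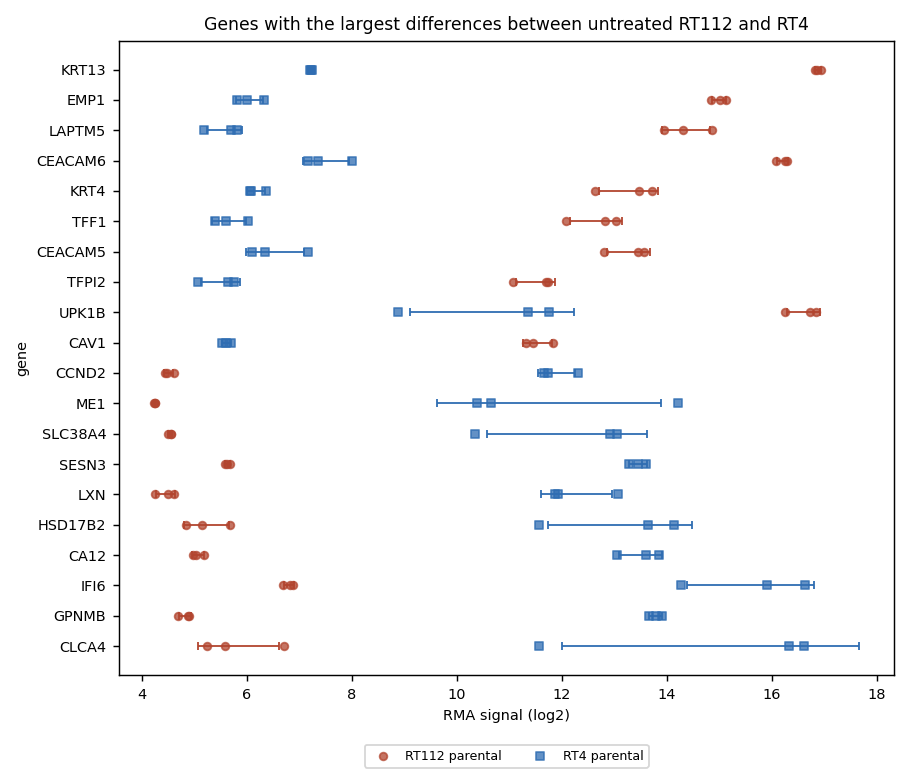
RMA signal (log2, horizontal axis) of the 10 genes with the largest difference in each direction, with each array as a point and the mean ± SD of 3 arrays as a bar, circles for RT112 and squares for RT4. The groups do not overlap at any of the 20 genes, and RT4 spreads widest at CLCA4 (11.57 to 16.61) and ME1 (10.39 to 14.21).

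Towards RT4, the largest differences were at CLCA4, GPNMB, IFI6, CA12, HSD17B2, LXN, SESN3, SLC38A4, ME1 and CCND2. CLCA4, a regulator of calcium-activated chloride channels, read 5.24, 5.59 and 6.72 in RT112 and 11.57, 16.61 and 16.32 in RT4 (log2 difference -8.98, SE 1.29, adjusted p = 0.00216). GPNMB, a glycoprotein of lysosomes and melanosomes, read 4.91, 4.88 and 4.70 in RT112 and 13.90, 13.80 and 13.66 in RT4 (log2 difference -8.96, SE 0.11, adjusted p = 1.32e-07), a 497-fold difference in signal. CA12, a carbonic anhydrase of the cell surface, read 5.04, 5.19 and 4.98 in RT112 and 13.05, 13.61 and 13.85 in RT4 (log2 difference -8.43, SE 0.20, adjusted p = 2.04e-06). HSD17B2, which inactivates oestradiol and testosterone, read 4.85, 5.15 and 5.69 in RT112 and 11.56, 13.64 and 14.13 in RT4 (log2 difference -7.88, SE 0.63, adjusted p = 1.87e-04). LXN, the carboxypeptidase inhibitor latexin, read 4.26, 4.51 and 4.61 in RT112 and 13.07, 11.88 and 11.92 in RT4 (log2 difference -7.83, SE 0.32, adjusted p = 1.26e-05). At these genes 1 RT112 array reached 6.72, at CLCA4, and the others were at or under 5.69, close to the array medians. IFI6, also among the 10, is given with the interferon-stimulated genes.

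SESN3, a stress-induced sestrin, read 5.69, 5.63 and 5.59 in RT112 and 13.46, 13.28 and 13.61 in RT4 (log2 difference -7.81, SE 0.11, adjusted p = 2.60e-07). SLC38A4, a transporter of neutral amino acids, read 4.56, 4.56 and 4.50 in RT112 and 10.35, 13.06 and 12.91 in RT4 (log2 difference -7.57, SE 0.67, adjusted p = 2.81e-04). ME1, the cytosolic malic enzyme that makes NADPH, read 4.25, 4.25 and 4.24 in RT112 and 14.21, 10.66 and 10.39 in RT4 (log2 difference -7.51, SE 0.94, adjusted p = 0.00117), with RT4 replicate 1 above the others. CCND2, the D-type cyclin 2, read 4.61, 4.49 and 4.44 in RT112 and 12.31, 11.66 and 11.74 in RT4 (log2 difference -7.39, SE 0.18, adjusted p = 2.04e-06). Without RT4 replicate 1, the differences at CLCA4, SLC38A4 and ME1 were -10.62, -8.45 and -6.28, and each was still called.

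FGFR3 itself was not called. It read 9.87, 10.42 and 10.61 in RT112 and 8.0, 9.91 and 9.59 in RT4 (log2 difference 1.13, SE 0.49, adjusted p = 0.135), so the lowest RT112 array, at 9.87, was within the range of RT4. Without RT4 replicate 1 the difference was 0.55 (adjusted p = 0.113). TACC3, the fusion partner and a spindle protein, read 9.64, 9.50 and 9.67 in RT112 and 8.05, 9.64 and 9.54 in RT4 (log2 difference 0.53, SE 0.40, adjusted p = 0.404). The probe set of a gene does not separate wild type from fusion transcripts here. FGFR2 read 6.35, 6.40 and 6.40 in RT112 and 6.65, 6.92 and 6.89 in RT4 and was called lower in RT112 only when replicate 1 was left out (-0.52, adjusted p = 0.00246, against 0.0172 with it). FGFR1 (0.06), FGFR4 (0.20), KL (-0.09), KLB (0.03) and FRS3 (0.15) were not called, and their means were close to the array medians in both lines. FGFRL1, a receptor that lacks the kinase domain, was the called member of the 9, at 6.30, 6.18 and 6.30 in RT112 and 5.75, 5.62 and 5.66 in RT4 (log2 difference 0.58, SE 0.09, adjusted p = 0.00272). Of 21 FGF ligands and binding proteins, 0 were called by limma in either direction, and 0 also without replicate 1 or by the methods' t-test, 1 of the tests that the study's methods name for single genes (limma is their test over all genes), adjusted the same way here, while 1 was higher at an unadjusted p under 0.05. FGFBP1, a carrier of FGFs, had the largest difference among them, at 9.54, 9.21 and 8.94 in RT112 and 7.21, 7.33 and 8.70 in RT4 (log2 difference 1.48, SE 0.39, adjusted p = 0.0282).

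The ERK output genes were called at about the share of all genes. Of 24 measured, 2 were higher (8.33%) and 3 lower (12.5%) in RT112, with a median of 0.00, against 8.72% and 10.1% of all genes. Leaving RT4 replicate 1 out gave 3 and 5, with a median of -0.24. SPRY1, a feedback inhibitor of receptor tyrosine kinase signalling, was low in RT112, at 5.99, 6.12 and 6.40 in RT112 and 8.05, 8.73 and 9.10 in RT4 (log2 difference -2.46, SE 0.26, adjusted p = 5.98e-04). SPRED1, which restrains RAS, read 7.95, 7.91 and 8.12 in RT112 and 8.50, 8.91 and 8.97 in RT4 (log2 difference -0.80, SE 0.15, adjusted p = 0.00594), and CCND1, the D-type cyclin 1, read 12.75, 12.63 and 12.72 in RT112 and 13.60, 13.89 and 13.86 in RT4 (log2 difference -1.08, SE 0.11, adjusted p = 4.47e-04). EPHA2, an Eph receptor kinase, was higher in RT112, at 9.97, 9.80 and 9.83 in RT112 and 7.27, 8.14 and 8.03 in RT4 (log2 difference 2.05, SE 0.23, adjusted p = 6.64e-04). ETV5, an ETS factor below FGFR3, read 6.14, 6.15 and 6.37 in RT112 and 6.58, 6.85 and 6.65 in RT4 and was not called (log2 difference -0.47, SE 0.11, adjusted p = 0.0196). Among 28 genes linked to FGFR3 in bladder tumours, 5 were higher (17.9%) and 6 lower (21.4%), and 7 and 11 without RT4 replicate 1. CLDN7, a claudin of tight junctions, read 9.11, 10.04 and 10.06 in RT112 and 6.98, 6.88 and 6.76 in RT4 (log2 difference 2.86, SE 0.26, adjusted p = 2.82e-04), and BMP2, a bone morphogenetic protein, read 6.45, 6.82 and 6.60 in RT112 and 7.88, 9.35 and 9.89 in RT4 (log2 difference -2.42, SE 0.47, adjusted p = 0.00806).

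Of 49 other receptor kinases and their partners, 8 were higher (16.3%, against 8.72% of all genes) and 6 lower (12.2%, against 10.1%), with a median of 0.02, and leaving RT4 replicate 1 out gave 8 and 11. KIT, the receptor of stem cell factor, read 4.68, 4.51 and 4.66 in RT112 and 9.48, 11.70 and 11.96 in RT4 (log2 difference -6.43, SE 0.61, adjusted p = 3.50e-04). MERTK, a receptor kinase of the TAM family, read 4.74, 4.82 and 4.71 in RT112 and 9.86, 9.09 and 9.01 in RT4 (log2 difference -4.56, SE 0.22, adjusted p = 2.64e-05). Its relative AXL went the other way, at 8.80, 8.72 and 8.84 in RT112 and 6.37, 6.14 and 6.37 in RT4 (log2 difference 2.49, SE 0.10, adjusted p = 1.26e-05). ROR1, a receptor of the Wnt5a type ligands, read 9.01, 8.34 and 8.51 in RT112 and 6.02, 5.46 and 5.51 in RT4 (log2 difference 2.96, SE 0.22, adjusted p = 1.40e-04), and EFNB2, a membrane-bound ephrin, read 10.31, 10.02 and 9.95 in RT112 and 7.83, 6.62 and 6.42 in RT4 (log2 difference 3.14, SE 0.35, adjusted p = 7.41e-04). MET, the receptor of hepatocyte growth factor, was higher by 0.82 (SE 0.11, adjusted p = 0.00167) and INSR, the insulin receptor, was lower, with a difference of -1.42 (adjusted p = 4.11e-04). IGF1R read 9.96, 10.09 and 9.95 in RT112 and 10.25, 10.86 and 11.06 in RT4 and was called only without RT4 replicate 1 (-0.96, adjusted p = 6.59e-04, against 0.035). IGFBP3 (-1.22) was lower and IGFBP6 (1.82), named after its values were seen, higher in RT112, both binding proteins of the insulin-like growth factors.

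In the ERBB family and its ligands, 2 of 15 were higher and 2 lower (13.3% each), against 8.72% and 10.1% of all genes. EGFR read 9.79, 9.53 and 9.47 in RT112 and 7.73, 8.39 and 8.45 in RT4 (log2 difference 1.41, SE 0.21, adjusted p = 0.00232) and its ligand TGFA 7.85, 7.93 and 8.09 in RT112 and 7.27, 7.21 and 7.39 in RT4 (log2 difference 0.67, SE 0.10, adjusted p = 0.00291), both higher in RT112. BTC, the ligand betacellulin, read 5.20, 5.27 and 5.26 in RT112 and 6.88, 7.14 and 7.19 in RT4 (log2 difference -1.83, SE 0.11, adjusted p = 5.59e-05) and NRG2, a neuregulin, 5.62, 5.67 and 5.60 in RT112 and 6.46, 6.38 and 6.31 in RT4 (log2 difference -0.75, SE 0.09, adjusted p = 7.85e-04), both lower. ERBB3 was not called, at 8.94, 9.64 and 9.68 in RT112 and 10.52, 10.10 and 10.20 in RT4 (log2 difference -0.85, SE 0.22, adjusted p = 0.0254). With RT4 replicate 1 left out, 4 members were higher and 2 lower.

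Of 27 urothelial transcription factors, 2 were higher (7.41%) and 9 lower (33.3%) in RT112, against 8.72% and 10.1% of all genes. Without RT4 replicate 1 the counts were 2 and 12. GATA3 (0.16), PPARG (-0.01), ELF3 (-0.04) and KLF5 (0.14) were not called, while FOXA1 was called lower in RT112. FOXA1, a pioneer factor, read 9.82, 10.19 and 10.32 in RT112 and 11.13, 11.53 and 11.29 in RT4 (log2 difference -1.21, SE 0.16, adjusted p = 0.00168). TBX3, a T-box repressor, read 8.48, 8.37 and 8.47 in RT112 and 10.82, 10.55 and 10.63 in RT4 (log2 difference -2.23, SE 0.10, adjusted p = 2.24e-05), and TBX2 read 6.98, 6.89 and 6.76 in RT112 and 8.36, 8.20 and 7.96 in RT4 (log2 difference -1.30, SE 0.13, adjusted p = 4.16e-04). EHF, an epithelial ETS factor, read 10.73, 11.10 and 11.29 in RT112 and 12.41, 12.61 and 12.78 in RT4 (log2 difference -1.56, SE 0.17, adjusted p = 6.15e-04), and GRHL1, a grainyhead factor, 8.69, 8.87 and 9.18 in RT112 and 10.41, 10.13 and 10.45 in RT4 (log2 difference -1.42, SE 0.15, adjusted p = 6.39e-04). Its relative GRHL2 was higher in RT112, at 12.31, 12.36 and 12.42 in RT112 and 11.23, 11.62 and 11.50 in RT4 (log2 difference 0.91, SE 0.12, adjusted p = 0.00143), as was RXRA, the retinoid X receptor that pairs with PPARG, by 0.69 (adjusted p = 0.00303).

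The other factors called lower were ID2 (-1.26), an inhibitor of helix-loop-helix factors, MECOM (-1.19), a zinc finger factor, PAX8 (-0.88) and ESR1 (-0.65), the oestrogen receptor, of which ESR1 and PAX8 were close to the array medians in RT112. AHR, the aryl hydrocarbon receptor, read 13.57, 13.83 and 13.89 in RT112 and 14.13, 14.80 and 14.74 in RT4 and was called only without RT4 replicate 1 (-1.01, adjusted p = 0.00105, against 0.021), like IRF1 (-0.46) and SPDEF (-0.59). FOXQ1 (0.51), GRHL3 (-0.71), ID1 (0.83), RARG (0.57), KLF4 (0.06), MSX2 (0.25), OVOL1 (0.27), OVOL2 (-0.06) and ZBTB16 (0.00) were not called with or without it.

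Umbrella cell genes went both ways. Of 25, 4 were higher and 5 lower in RT112. UPK2 read 10.68, 12.01 and 12.08 in RT112 and 6.90, 8.98 and 8.69 in RT4 (log2 difference 3.40, SE 0.61, adjusted p = 0.00562), and UPK1B is given above. UPK1A was at 11.94, 14.53 and 14.88 in RT112 and 8.11, 10.74 and 10.10 in RT4, with the groups apart and the test not passed (log2 difference 4.13, SE 0.93, adjusted p = 0.0147). UPK3A was low throughout, at 4.87, 4.76 and 4.83 in RT112 and 5.16, 6.54 and 6.45 in RT4 (log2 difference -1.23, SE 0.35, adjusted p = 0.0358), and was called lower in RT112 without replicate 1 (-1.68, adjusted p = 4.45e-05). CYP4B1, a cytochrome P450 of bladder epithelium, read 6.64, 7.70 and 7.86 in RT112 and 9.94, 13.18 and 12.73 in RT4 (log2 difference -4.55, SE 0.83, adjusted p = 0.00599). MAL, a protein of apical membrane transport, read 4.97, 4.91 and 5.02 in RT112 and 8.32, 9.28 and 9.65 in RT4 (log2 difference -4.12, SE 0.31, adjusted p = 1.53e-04). SPINK1, a trypsin inhibitor, read 5.26, 5.39 and 5.40 in RT112 and 8.85, 7.35 and 7.23 in RT4 (log2 difference -2.46, SE 0.41, adjusted p = 0.0039). PSCA, a surface antigen of prostate and bladder, read 9.17, 10.04 and 9.95 in RT112 and 6.43, 6.77 and 7.59 in RT4 (log2 difference 2.79, SE 0.34, adjusted p = 0.00111) and, like UPK1A and UPK3A, was named after its values were seen. RT4 replicate 1 was the lowest RT4 array for UPK1A, UPK1B, UPK2 and UPK3A. Without it, 4 members were higher and 8 lower.

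Keratins were higher in RT112 or not called. Of 23 simple and basal keratins, 10 were higher and 0 lower by limma (median 0.47), 17 and 0 at an unadjusted p under 0.05, 6 and 0 by the methods' t-test, and 11 and 0 without RT4 replicate 1. KRT5, the basal keratin, read 11.44, 11.52 and 12.39 in RT112 and 7.06, 6.91 and 6.84 in RT4 (log2 difference 4.85, SE 0.25, adjusted p = 3.21e-05). KRT80 read 9.50, 9.92 and 9.88 in RT112 and 5.75, 5.24 and 5.45 in RT4 (log2 difference 4.29, SE 0.17, adjusted p = 1.25e-05). The simple keratins KRT8 (1.01) and KRT18 (1.04) were higher at signals above 15 in all 6 arrays, and KRT7 (0.43) and KRT19 (0.08) were not called. KRT7, KRT8, KRT18 and KRT19 were named after their values were seen. For the basal-squamous genes, 7 of 32 were higher and 1 lower, and 9 and 4 without RT4 replicate 1. SPRR3, a small proline-rich protein of the cornified envelope, read 7.51, 8.33 and 8.92 in RT112 and 5.28, 5.80 and 4.92 in RT4 (log2 difference 2.92, SE 0.38, adjusted p = 0.00131), and SPRR1B read 7.23, 6.69 and 7.54 in RT112 and 5.46, 5.47 and 5.34 in RT4 (log2 difference 1.73, SE 0.21, adjusted p = 9.69e-04). DSC2, a desmosomal cadherin, read 7.29, 7.49 and 7.41 in RT112 and 5.78, 5.56 and 5.78 in RT4 (log2 difference 1.69, SE 0.11, adjusted p = 6.86e-05). KRT6A, KRT6B, KRT17 and TP63 had no probe set of exactly 1 symbol and were not analysed here.

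Tight junction and adhesion genes were more often higher in RT112. Of 40 measured, 14 were higher and 3 lower (median 0.22). Without RT4 replicate 1 the counts were 14 and 5. DSG2, a cadherin of desmosomes, read 14.75, 14.86 and 14.74 in RT112 and 11.89, 12.35 and 12.22 in RT4 (log2 difference 2.63, SE 0.13, adjusted p = 3.08e-05). CDH1, E-cadherin, was not called, at 14, 14.41 and 14.41 in RT112 and 14.63, 14.50 and 14.51 in RT4 (log2 difference -0.27, SE 0.13, adjusted p = 0.186), while CDH2, N-cadherin, was higher in RT112, at 6.73, 6.51 and 6.88 in RT112 and 5.29, 5.20 and 5.0 in RT4 (log2 difference 1.54, SE 0.13, adjusted p = 2.30e-04). The members also include CEACAM5, CEACAM6 and CLDN7, described above. S100 proteins, which bind calcium, had 3 of 18 members higher and 0 lower by limma (7 and 2 at an unadjusted p under 0.05, 2 and 0 by the methods' t-test), with S100A14 at 12.15, 12.28 and 12.45 in RT112 and 9.67, 9.16 and 9.06 in RT4 (log2 difference 3.0, SE 0.18, adjusted p = 5.46e-05), and differences of 2.02 at S100A10 and 1.23 at S100A4. Leaving RT4 replicate 1 out gave 3 and 1. Among 42 mucins and secreted epithelial products, 7 were higher (16.7%) and 4 lower (9.52%), against 8.72% and 10.1% of all genes. ANXA1, a membrane-binding annexin, read 13.57, 13.67 and 13.72 in RT112 and 9.61, 11.67 and 11.45 in RT4 (log2 difference 2.74, SE 0.50, adjusted p = 0.00627). With RT4 replicate 1 left out, 10 and 8 were called.

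**Figure D3:**
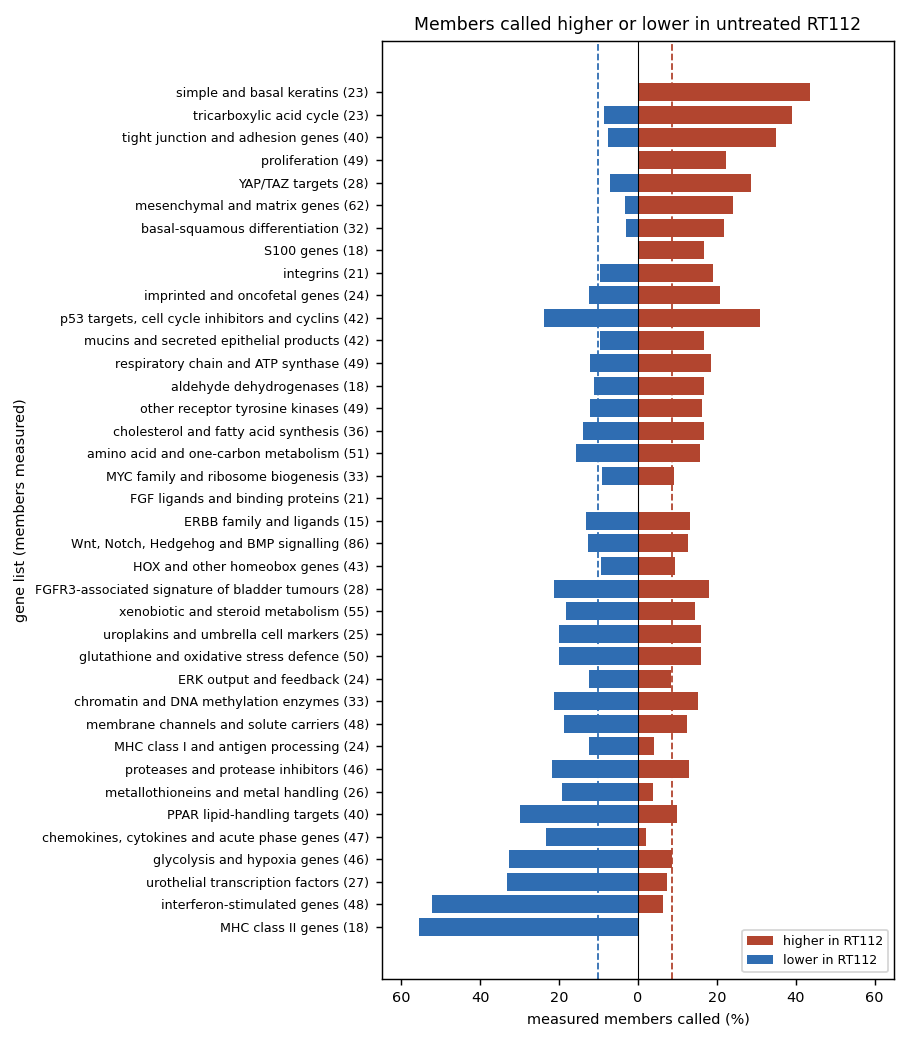
Share of the measured members (%, horizontal axis) called higher (to the right) or lower (to the left) in RT112, for the 38 gene lists with at least 15 measured members, whose number stands in brackets. Dashed lines mark the share of all autosomal genes, 8.72% higher and 10.1% lower. Keratins reach 43.5% higher and MHC class II genes 55.6% lower.

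Of 62 mesenchymal and matrix genes, 15 were higher and 2 lower in RT112, with a median of 0.04. Without RT4 replicate 1 the counts were 16 and 10. FN1, fibronectin, read 10.75, 10.82 and 10.99 in RT112 and 6.28, 6.17 and 6.44 in RT4 (log2 difference 4.56, SE 0.11, adjusted p = 2.08e-06). TGFBI, a matrix protein induced by TGF-beta, read 12.18, 12.10 and 12.18 in RT112 and 7.79, 7.0 and 7.32 in RT4 (log2 difference 4.78, SE 0.19, adjusted p = 1.26e-05). LUM, the collagen-binding proteoglycan lumican, read 9.83, 9.75 and 9.51 in RT112 and 5.45, 5.28 and 4.81 in RT4 (log2 difference 4.52, SE 0.18, adjusted p = 1.26e-05), and MYL9, a regulatory myosin light chain, 9.12, 11.02 and 11.75 in RT112 and 7.22, 7.0 and 7.08 in RT4 (log2 difference 3.53, SE 0.60, adjusted p = 0.00458). VIM, vimentin, was called at 5.13, 5.16 and 5.15 in RT112 and 4.77, 4.74 and 4.72 in RT4 (log2 difference 0.40, SE 0.08, adjusted p = 0.00826), with both lines close to the array medians. SNAI2, a repressor of E-cadherin, was not called, at 8.49, 8.01 and 8.23 in RT112 and 6.66, 8.04 and 8.0 in RT4 (log2 difference 0.68, SE 0.37, adjusted p = 0.235).

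Integrins went both ways. ITGB5 read 10.68, 10.60 and 10.56 in RT112 and 8.28, 8.31 and 8.29 in RT4 (log2 difference 2.32, SE 0.08, adjusted p = 8.57e-06) and ITGB1 14.54, 14.58 and 14.61 in RT112 and 13.33, 12.85 and 12.76 in RT4 (log2 difference 1.60, SE 0.16, adjusted p = 4.09e-04), both higher in RT112, as was ITGA6 (1.44), the laminin-binding chain of basal cells. ITGAV, the vitronectin-binding chain, was lower, at 11.26, 11.32 and 11.33 in RT112 and 12.92, 14.05 and 14.49 in RT4 (log2 difference -2.52, SE 0.36, adjusted p = 0.00223). In all, 4 of 21 integrins were higher and 2 lower, and 3 and 3 without RT4 replicate 1. Of 28 YAP/TAZ targets and cofactors, 8 were higher and 2 lower (median 0.42), and without RT4 replicate 1, 12 and 4. VGLL3, a cofactor of the TEAD factors, read 9.93, 9.84 and 9.75 in RT112 and 4.79, 5.35 and 5.02 in RT4 (log2 difference 4.79, SE 0.15, adjusted p = 4.94e-06). ANKRD1, a standard YAP target, read 5.82, 6.20 and 6.39 in RT112 and 4.62, 4.19 and 4.24 in RT4 (log2 difference 1.79, SE 0.18, adjusted p = 4.79e-04). FJX1 was lower, at 6.53, 6.58 and 6.58 in RT112 and 8.49, 11.01 and 10.58 in RT4 (log2 difference -3.46, SE 0.60, adjusted p = 0.00477).

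Glycolysis and hypoxia genes were more often lower than higher in RT112. Of 46, 4 were higher and 15 lower (median -0.36), and without RT4 replicate 1, 5 and 17. EGLN3, a prolyl hydroxylase that is itself induced by hypoxia, read 5.73, 6.16 and 6.36 in RT112 and 11.57, 10.61 and 11.04 in RT4 (log2 difference -4.99, SE 0.27, adjusted p = 3.50e-05). BNIP3, a mitophagy receptor, read 6.29, 6.85 and 7.60 in RT112 and 9.08, 9.61 and 11.42 in RT4 (log2 difference -3.12, SE 0.62, adjusted p = 0.00852). FBP1, the gluconeogenic fructose bisphosphatase, read 4.22, 4.21 and 4.31 in RT112 and 7.85, 9.84 and 10.58 in RT4 (log2 difference -5.18, SE 0.63, adjusted p = 0.00101). NDRG1 (-2.67) and VEGFA (-1.96), the vascular growth factor, named after their values were seen, were lower as well. The members named here were picked for a large difference or after their values were seen, and all were lower. None of them is 1 of the 4 higher members or an enzyme of glycolysis itself, so the direction of such enzymes is not shown. CA12, EGLN3, BNIP3, NDRG1 and VEGFA are known to be induced by hypoxia in many cells, and oxygen was not measured here.

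Of 23 genes of the tricarboxylic acid cycle, 9 were higher and 2 lower in RT112 (median 0.39). ME2, the mitochondrial malic enzyme, read 11.35, 11.17 and 11.33 in RT112 and 9.08, 9.26 and 9.08 in RT4 (log2 difference 2.14, SE 0.10, adjusted p = 2.32e-05), while its relative ME3 was lower, at 4.64, 4.58 and 4.51 in RT112 and 7.03, 7.62 and 7.79 in RT4 (log2 difference -2.90, SE 0.19, adjusted p = 9.10e-05), as was ME1, given above. SDHA, a subunit of succinate dehydrogenase, read 9.69, 9.76 and 9.81 in RT112 and 8.47, 8.69 and 8.69 in RT4 (log2 difference 1.14, SE 0.10, adjusted p = 2.61e-04), while PDHB, a subunit of pyruvate dehydrogenase, was lower, at 7.87, 7.87 and 8.02 in RT112 and 8.70, 8.93 and 9.05 in RT4 (log2 difference -0.97, SE 0.12, adjusted p = 9.80e-04). Leaving out RT4 replicate 1 moved the median of this list to 0.11, with 9 higher and 3 lower. The R1 no PD arrays showed no lean of this list, with 7 higher and 7 lower and a median of -0.05. Respiratory chain and ATP synthase genes had 9 of 49 higher (18.4%) and 6 lower (12.2%), with a median of -0.02. At an unadjusted p under 0.05 by limma, 13 were higher and 15 lower. ATP5F1C, an ATP synthase subunit, read 15.29, 15.24 and 15.37 in RT112 and 13.50, 13.93 and 13.76 in RT4 (log2 difference 1.57, SE 0.13, adjusted p = 1.88e-04). CYC1 (1.42), NDUFV1 (1.36) and UQCRC2 (1.25) were higher too, and the members named are those with the largest difference. Without RT4 replicate 1, 9 of the list were higher and 10 lower. In R1 no PD, 5 were higher and 12 lower, with a median of -0.14.

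PPAR lipid-handling targets were more often lower, 12 of 40, against 4 higher, with a median of -0.05 that turned to 0.01 when arrays were centred on their medians. UCP2, a mitochondrial carrier, read 6.02, 6.39 and 6.45 in RT112 and 12.23, 12.01 and 12.04 in RT4 (log2 difference -5.81, SE 0.14, adjusted p = 2.04e-06). PLIN2, the coat protein of lipid droplets, read 4.83, 4.96 and 4.81 in RT112 and 9.83, 9.62 and 9.80 in RT4 (log2 difference -4.88, SE 0.10, adjusted p = 1.32e-06). ACSL1, which activates fatty acids, read 9.49, 9.61 and 9.30 in RT112 and 13.85, 12.45 and 12.98 in RT4 (log2 difference -3.63, SE 0.33, adjusted p = 2.97e-04). FABP4, a fatty acid carrier and PPARG target, went the other way, at 16.97, 16.91 and 16.95 in RT112 and 12.26, 14.58 and 14.50 in RT4 (log2 difference 3.16, SE 0.58, adjusted p = 0.00639). Of 36 cholesterol and fatty acid synthesis genes, 6 were higher (16.7%) and 5 lower (13.9%), against 8.72% and 10.1% of all genes. MVD, an enzyme of the mevalonate pathway, read 11.05, 11.04 and 11.22 in RT112 and 9.63, 9.07 and 8.66 in RT4 (log2 difference 1.98, SE 0.23, adjusted p = 8.75e-04). Differences were -2.06 at STARD4, a sterol carrier, and -1.99 at ELOVL5, a fatty acid elongase. With RT4 replicate 1 left out, 10 and 6 were called.

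In amino acid metabolism, 8 of 51 genes were higher and 8 lower (15.7% each), against 8.72% and 10.1% of all genes. ASS1, the argininosuccinate synthase of arginine synthesis, read 7.07, 8.01 and 8.32 in RT112 and 13.58, 12.53 and 12.43 in RT4 (log2 difference -5.05, SE 0.41, adjusted p = 1.90e-04). GATM, which makes the creatine precursor, read 5.01, 5.03 and 4.99 in RT112 and 10.32, 10.58 and 10.64 in RT4 (log2 difference -5.50, SE 0.11, adjusted p = 1.32e-06), and KYNU, an enzyme of tryptophan breakdown, 7.64, 8.46 and 8.38 in RT112 and 12.07, 12.82 and 13.09 in RT4 (log2 difference -4.50, SE 0.32, adjusted p = 1.07e-04). OAT, the ornithine aminotransferase, was higher in RT112, at 10.81, 10.77 and 10.86 in RT112 and 6.94, 6.53 and 6.83 in RT4 (log2 difference 4.05, SE 0.12, adjusted p = 4.48e-06). SLC7A5, a transporter of large neutral amino acids named after its values were seen, read 15.21, 14.30 and 14.41 in RT112 and 13.44, 10.77 and 7.61 in RT4, with the RT4 arrays spread over more than 5 log2 units and the test not passed (log2 difference 4.03, SE 1.30, adjusted p = 0.0567). Without replicate 1 it was called (5.45, adjusted p = 0.004). Of 18 aldehyde dehydrogenases, 3 were higher (16.7%) and 2 lower (11.1%). ALDH1A3 read 14.47, 14.04 and 13.89 in RT112 and 12.26, 10.03 and 9.45 in RT4 (log2 difference 3.55, SE 0.67, adjusted p = 0.00699), and ALDH1A1, the other main retinaldehyde dehydrogenase, 4.52, 4.44 and 4.52 in RT112 and 8.48, 8.47 and 7.31 in RT4 (log2 difference -3.59, SE 0.31, adjusted p = 2.35e-04). ALDH3B1 (2.09) was higher and ALDH7A1 (-3.85) lower, and without RT4 replicate 1 the counts were 4 and 5.

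Defence and detoxification genes went both ways. Of 50 glutathione and oxidative stress genes, 8 were higher and 10 lower, and without RT4 replicate 1, 13 and 18. GSTP1, a glutathione transferase, was higher in RT112, at 14.52, 14.57 and 14.61 in RT112 and 11.61, 11.34 and 11.94 in RT4 (log2 difference 2.94, SE 0.15, adjusted p = 3.41e-05). HMOX1, the stress-induced haem oxygenase, was lower, at 6.19, 6.12 and 6.09 in RT112 and 9.51, 7.81 and 8.59 in RT4 (log2 difference -2.50, SE 0.38, adjusted p = 0.00279). GPX4, which reduces lipid peroxides, was lower, at 12.27, 12.24 and 12.39 in RT112 and 13.45, 13.84 and 13.47 in RT4 (log2 difference -1.29, SE 0.13, adjusted p = 4.50e-04), and PRDX6, a peroxiredoxin, higher, at 11.29, 11.31 and 11.46 in RT112 and 9.84, 10.18 and 9.95 in RT4 (log2 difference 1.36, SE 0.12, adjusted p = 2.36e-04). GSTM4 (1.93) and GPX8 (2.06) were higher too. Of 55 xenobiotic and steroid enzymes, 8 were higher (14.5%) and 10 lower (18.2%), HSD17B2 and CYP4B1 among the latter. The largest of the higher members were CYP24A1, which breaks down vitamin D, at 11.18, 12.15 and 12.67 in RT112 and 5.59, 6.59 and 6.55 in RT4 (log2 difference 5.76, SE 0.42, adjusted p = 1.33e-04), and DHRS9, a retinol and steroid dehydrogenase, at 10.04, 10.22 and 10.21 in RT112 and 6.20, 5.83 and 5.98 in RT4 (log2 difference 4.15, SE 0.12, adjusted p = 4.30e-06). Without replicate 1 the counts were 12 and 13. Among 26 metallothionein and metal-handling genes, 1 was higher (3.85%) and 5 lower (19.2%). The list median was 0.20, and at an unadjusted p under 0.05 by limma 11 were higher and 6 lower, so the list had no clear direction. The member called higher was MT2A, at 13.03, 13.39 and 13.90 in RT112 and 9.36, 9.47 and 9.80 in RT4 (log2 difference 3.90, SE 0.23, adjusted p = 5.57e-05). Lower were CP, ceruloplasmin, at 9.25, 10.79 and 12.04 in RT112 and 14.79, 14.63 and 15.24 in RT4 (log2 difference -4.19, SE 0.63, adjusted p = 0.00268) and STEAP1, a metalloreductase, with a difference of -1.82. Leaving RT4 replicate 1 out gave 2 and 5.

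Interferon-stimulated genes were lower in RT112 in many members. Of 48, 25 were lower (52.1%, against 10.1% of all genes) and 3 higher, with a median of -1.32, and 29 and 4 without RT4 replicate 1. IFI6, a mitochondrial survival protein induced by interferon, read 6.89, 6.70 and 6.82 in RT112 and 15.91, 14.27 and 16.63 in RT4 (log2 difference -8.80, SE 0.54, adjusted p = 6.36e-05). OAS2, a sensor of double-stranded RNA, read 4.92, 5.25 and 5.05 in RT112 and 11.11, 11.55 and 11.89 in RT4 (log2 difference -6.44, SE 0.20, adjusted p = 4.91e-06). APOL1, an apolipoprotein, read 7.63, 7.71 and 7.71 in RT112 and 12.84, 12.22 and 12.77 in RT4 (log2 difference -4.93, SE 0.17, adjusted p = 7.55e-06), and UBD, the ubiquitin-like protein FAT10, 4.39, 4.57 and 4.25 in RT112 and 7.30, 9.76 and 9.90 in RT4 (log2 difference -4.58, SE 0.65, adjusted p = 0.00205). IFI27 (-3.65), IFI44L (-3.52) and IFIH1 (-3.17), the sensor MDA5, were lower, and BST2 (2.24), the antiviral protein tetherin, was higher, all named after their values were seen. IFI27 varied among the RT4 arrays, at 8.41, 6.84 and 10.19, and was no longer called without replicate 1 (-3.69, adjusted p = 0.0195). The RT112 arrays lay between 7.12 and 7.24 in the mean of this list, and the RT4 arrays between 8.31 and 8.88.

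Many such genes carry an interferon-stimulated response element, whose core was searched on both strands as the letters GAAA, any pair of bases, and GAAA again. Of 39 listed genes with a promoter window in the RefSeq table (250 bases before to 50 after the start), 28 held the core (71.8%), against 4.38% of the 27305 genes with a window. It was held by 13 of 20 genes called lower in RT112 (65%) and by 15 of 19 others (78.9%). Stretches of 90 bases are shown for 4 of the called genes, from RefSeq on GRCh38.p14, to show the element that they share, with the core in capitals in either orientation.
IFI6: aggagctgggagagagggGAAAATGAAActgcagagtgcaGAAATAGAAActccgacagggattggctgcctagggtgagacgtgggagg
IFI27: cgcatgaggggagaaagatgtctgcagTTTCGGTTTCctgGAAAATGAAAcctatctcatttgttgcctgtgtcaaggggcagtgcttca
IFI44L: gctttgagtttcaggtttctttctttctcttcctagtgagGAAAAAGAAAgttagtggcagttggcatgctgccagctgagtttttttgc
IFIH1: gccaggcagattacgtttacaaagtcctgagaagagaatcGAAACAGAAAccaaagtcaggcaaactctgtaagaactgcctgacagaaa
The IFI6 stretch lies at chr1:27672236-27672325 on the minus strand, and the IFI27 stretch at chr14:94110601-94110690 on the plus strand. The IFI44L stretch lies at chr1:78620335-78620424 on the plus strand, and the IFIH1 stretch at chr2:162318656-162318745 on the minus strand. A match is a description of the letters and not evidence of binding.

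MHC class II genes, which present antigen to helper T cells, were more often lower in RT112. Of 18 MHC class II genes and regulators, 10 were lower and 0 higher by limma (median -0.86), with 13 and 1 at an unadjusted p under 0.05 and 1 and 0 by the methods' t-test, and without RT4 replicate 1, 11 and 1. CD74, the invariant chain, read 5.17, 4.94 and 4.80 in RT112 and 9.91, 12.30 and 11.92 in RT4 (log2 difference -6.41, SE 0.58, adjusted p = 2.90e-04). HLA-DRA, the alpha chain of HLA-DR, read 5.20, 5.06 and 4.88 in RT112 and 10.13, 11.26 and 11.46 in RT4 (log2 difference -5.90, SE 0.33, adjusted p = 4.57e-05), with HLA-DRB1 at 6.25, 6.25 and 6.30 in RT112 and 9.07, 10.59 and 10.78 in RT4 (log2 difference -3.88, SE 0.42, adjusted p = 6.17e-04). HLA-DMA, which loads peptide, read 5.28, 5.59 and 5.58 in RT112 and 8.37, 9.95 and 10.28 in RT4 (log2 difference -4.05, SE 0.46, adjusted p = 7.76e-04). CIITA, the master activator of these genes and named after its values were seen, read 4.70, 4.49 and 4.72 in RT112 and 5.07, 5.44 and 5.47 in RT4 (log2 difference -0.69, SE 0.14, adjusted p = 0.00876). In MHC class I and antigen processing, 3 of 24 were lower (12.5%) and 1 higher (4.17%), and 9 and 2 without RT4 replicate 1. B2M, the light chain of class I, read 13.81, 14.10 and 13.94 in RT112 and 15.71, 15.65 and 16.16 in RT4 (log2 difference -1.89, SE 0.16, adjusted p = 2.22e-04), and MICB, a stress ligand of natural killer cells, was higher in RT112, at 10.50, 10.50 and 10.86 in RT112 and 9.41, 8.68 and 8.44 in RT4 (log2 difference 1.78, SE 0.25, adjusted p = 0.00205). PSME1 (-1.02), a proteasome activator, and HLA-G (-0.61) were lower.

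Chemokines, cytokines and acute phase genes had 11 of 47 members lower and 1 higher (median -0.59). Leaving RT4 replicate 1 out gave 20 lower and 3 higher. CXCL10, a chemokine induced by interferon, read 4.23, 4.13 and 4.25 in RT112 and 9.13, 8.74 and 9.57 in RT4 (log2 difference -4.94, SE 0.20, adjusted p = 1.26e-05). C3, the central complement component, read 6.64, 6.48 and 6.40 in RT112 and 10.38, 10.27 and 11.96 in RT4 (log2 difference -4.36, SE 0.43, adjusted p = 4.05e-04), and LCN2, the iron-scavenging lipocalin, 6.82, 7.45 and 7.54 in RT112 and 12.77, 9.80 and 10.87 in RT4 (log2 difference -3.88, SE 0.69, adjusted p = 0.00539). PTGES, which makes prostaglandin E2, was higher in RT112, at 13.66, 13.78 and 13.79 in RT112 and 9.81, 10.05 and 10.45 in RT4 (log2 difference 3.64, SE 0.17, adjusted p = 2.10e-05). Of the wider list of 14 immune cell markers 1 was called, CD68, a lysosomal protein, which was well above the array medians in both lines, at 8.91, 8.80 and 9.08 in RT112 and 8.17, 8.28 and 8.29 in RT4 (log2 difference 0.68, SE 0.10, adjusted p = 0.00272), with 1 higher and 1 lower when RT4 replicate 1 was left out.

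Proliferation genes were more often higher in RT112, and how many depended on RT4 replicate 1. With all arrays, 11 of 49 were higher and 0 lower by limma, with a median of 2.08, 31 and 0 at an unadjusted p under 0.05, and 0 in either direction by the methods' t-test after adjustment. Without that array, 39 were higher and 0 lower, with a median of 1.17. MYBL2, the cell cycle transcription factor B-MYB, read 12.09, 11.81 and 12.06 in RT112 and 6.54, 8.68 and 8.27 in RT4 (log2 difference 4.16, SE 0.51, adjusted p = 0.00107). MCM10, which acts at replication origins, read 11.80, 11.18 and 11.41 in RT112 and 7.79, 8.91 and 8.32 in RT4 (log2 difference 3.12, SE 0.29, adjusted p = 3.43e-04), and GINS2, a helicase subunit, 10.48, 10.01 and 10.32 in RT112 and 7.47, 8.57 and 7.80 in RT4 (log2 difference 2.32, SE 0.28, adjusted p = 0.00101). E2F8, a repressor of the E2F family, read 11.62, 11.64 and 12.02 in RT112 and 8.54, 10.07 and 9.92 in RT4 (log2 difference 2.25, SE 0.39, adjusted p = 0.00494). Without replicate 1 the differences at these genes were 3.51, 2.85, 2.08 and 1.76. MKI67 and TOP2A were called without it, at 1.92 (adjusted p = 2.56e-04) and 1.18 (adjusted p = 0.00106), and not with it (adjusted p = 0.0778 and 0.172).

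Cyclins and p53 targets went both ways, with 13 of 42 higher and 10 lower. CCND1 and CCND2 were lower in RT112, as given above. TP53INP1, a p53 target that promotes autophagy, read 7.03, 8.04 and 8.16 in RT112 and 12.06, 11.75 and 12.05 in RT4 (log2 difference -4.21, SE 0.29, adjusted p = 1.06e-04), and GDF15, a stress cytokine, 8.35, 9.29 and 9.58 in RT112 and 13.12, 13.34 and 13.09 in RT4 (log2 difference -4.11, SE 0.30, adjusted p = 1.30e-04). PLK2, a p53-induced kinase, was higher, at 10.57, 10.57 and 10.47 in RT112 and 6.75, 7.21 and 7.40 in RT4 (log2 difference 3.42, SE 0.17, adjusted p = 2.77e-05). In the MYC family and ribosome biogenesis, 3 of 33 were higher and 3 lower (9.09% each), near the 8.72% and 10.1% of all genes. RRP12 (1.29), UTP4 (1.28) and BOP1 (1.10), factors of ribosome assembly, were higher and MYCL (-1.26) was lower. Of 33 chromatin and DNA methylation enzymes, 5 were higher (15.2%) and 7 lower (21.2%), and 8 and 8 without RT4 replicate 1. DNMT3B, a de novo DNA methyltransferase, read 7.65, 7.54 and 7.58 in RT112 and 6.17, 5.78 and 5.91 in RT4 (log2 difference 1.64, SE 0.12, adjusted p = 1.31e-04), and TET1, which oxidises methylcytosine, 5.34, 5.41 and 5.51 in RT112 and 6.49, 6.85 and 7.04 in RT4 (log2 difference -1.37, SE 0.15, adjusted p = 6.49e-04). HDAC9 (-1.85), a deacetylase, and KDM4A (-1.49), a histone demethylase, were lower.

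In Wnt, Notch, Hedgehog and BMP signalling, 11 of 86 were higher and 11 lower (12.8% each), against 8.72% and 10.1% of all genes. DKK1, a secreted Wnt inhibitor, read 10.55, 10.59 and 9.78 in RT112 and 7.47, 8.20 and 7.74 in RT4 (log2 difference 2.50, SE 0.27, adjusted p = 6.08e-04), and ID4, a BMP target, 4.77, 5.39 and 4.52 in RT112 and 7.49, 8.79 and 8.29 in RT4 (log2 difference -3.30, SE 0.36, adjusted p = 6.27e-04). TGFBR1, a TGF-beta receptor, was higher, at 8.72, 8.70 and 8.75 in RT112 and 6.76, 6.62 and 6.59 in RT4 (log2 difference 2.07, SE 0.09, adjusted p = 1.59e-05). Of 43 homeobox genes, 4 were higher and 4 lower (9.30% each, near the share of all genes), with differences of -2.45 at HOXD1, -1.0 at HOXB2, 0.99 at HOXB5 and 1.12 at EMX2, and without RT4 replicate 1 the counts were 7 and 5. Among 24 imprinted and oncofetal genes, 5 were higher (20.8%) and 3 lower (12.5%). MEST, an imprinted gene, read 10.70, 10.75 and 10.65 in RT112 and 7.15, 6.84 and 6.55 in RT4 (log2 difference 3.85, SE 0.15, adjusted p = 1.26e-05), PEG10 read 11.75, 12.12 and 12.14 in RT112 and 9.84, 9.50 and 9.18 in RT4 (log2 difference 2.50, SE 0.19, adjusted p = 1.58e-04), and UCA1, a long noncoding RNA of urothelial cancer, was lower, at 13.08, 13.65 and 14.21 in RT112 and 16.52, 16.89 and 17.61 in RT4 (log2 difference -3.36, SE 0.36, adjusted p = 5.71e-04).

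Proteases and their inhibitors had 6 of 46 members higher and 10 lower, and 9 and 11 without RT4 replicate 1. PRSS8, the membrane serine protease prostasin, was higher in RT112, at 11.09, 11.76 and 11.84 in RT112 and 6.78, 6.34 and 6.81 in RT4 (log2 difference 4.92, SE 0.23, adjusted p = 2.28e-05). CST1, a secreted cystatin, was lower, at 7.69, 7.69 and 8.31 in RT112 and 12.58, 15.30 and 14.99 in RT4 (log2 difference -6.39, SE 0.68, adjusted p = 5.69e-04), as was SERPINB1, an inhibitor of elastase, at 4.73, 4.54 and 4.46 in RT112 and 8.79, 8.44 and 8.64 in RT4 (log2 difference -4.05, SE 0.13, adjusted p = 4.72e-06). Of 48 channels and solute carriers, 6 were higher (12.5%) and 9 lower (18.8%). GJA1, a gap junction connexin, was lower in RT112, at 4.65, 5.18 and 6.30 in RT112 and 8.53, 9.60 and 10.79 in RT4 (log2 difference -4.26, SE 0.62, adjusted p = 0.00232). SLC14A1, a urea transporter of the bladder, was lower too, at 8.78, 9.36 and 9.87 in RT112 and 11.03, 13.11 and 13.48 in RT4 (log2 difference -3.20, SE 0.63, adjusted p = 0.00853). ABCG2, a drug efflux pump, was higher, at 11.39, 11.85 and 11.40 in RT112 and 10.05, 7.69 and 7.63 in RT4 (log2 difference 3.09, SE 0.62, adjusted p = 0.00925), with RT4 replicate 1 above the other RT4 arrays, as was ABCA12, a lipid transporter of keratinocytes, at 9.33, 9.29 and 9.13 in RT112 and 6.08, 6.03 and 6.20 in RT4 (log2 difference 3.15, SE 0.10, adjusted p = 4.91e-06). Without replicate 1 these channel counts were 8 and 15. Of the wider fibroblast list, 3 of 11 were higher (LUM, ACTA2 by 1.04 and S100A4), and of 11 endothelial genes, 2 were higher (ENG by 1.81 and ESAM by 0.94). No member of these lists was lower by limma, at an unadjusted p under 0.05 or by the methods' t-test.

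The calls were spread unevenly over the autosomes. Chromosome 16 had 211 of 895 genes higher in RT112 (23.6%) and 34 lower (3.80%), with a median of 0.19. Chromosome 20 had 96 of 601 higher (16.0%) and 24 lower, chromosome 10 had 140 of 899 higher (15.6%) and 41 lower, and chromosome 9 had 137 of 903 higher (15.2%) and 43 lower. Chromosome 15 had 22 of 736 higher (2.99%) and 172 lower (23.4%), with a median of -0.16. Chromosome 19 had 53 of 1482 higher and 288 lower (19.4%), and chromosome 14 had 34 of 862 higher and 123 lower (14.3%). Over all autosomes the shares were 8.72% and 10.1%. Without RT4 replicate 1, chromosome 16 had 235 higher and 49 lower, and chromosome 15 had 41 higher and 218 lower, and chromosome 14 had 62 higher and 152 lower. In the R1 no PD arrays, chromosome 16 had 193 higher and 38 lower, and chromosome 15 had 26 higher and 177 lower. Copy number was not analysed here, and its part in these shares was not tested. Of the named genes on chromosome 15, CA12, GATM, B2M and SPRED1 were lower in RT112 and ALDH1A3 was higher. Of those on chromosome 16, PRSS8, MT2A, GINS2, MVD, UTP4 and UQCRC2 were higher, and HSD17B2 and CIITA were lower.

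**Figure D4:**
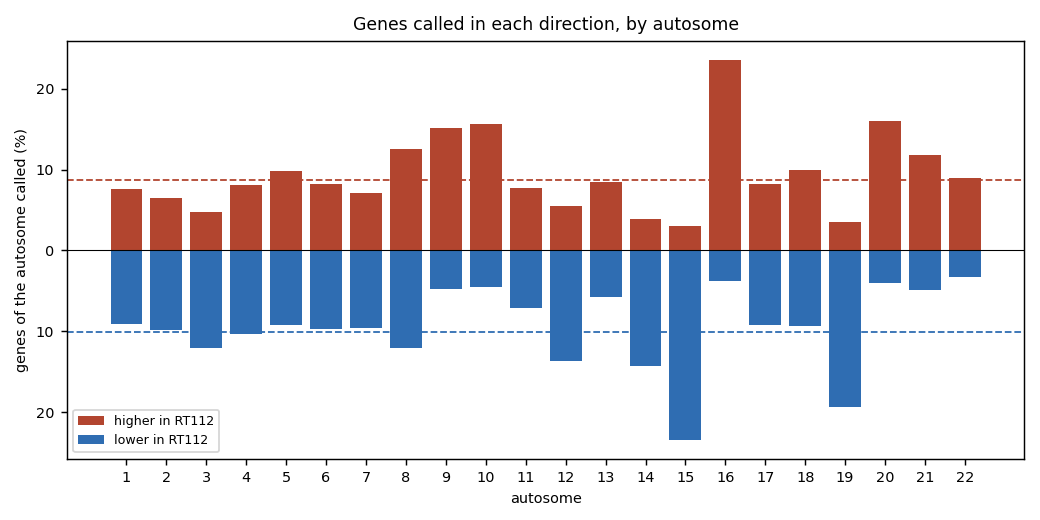
Share of the genes of each autosome (%, vertical axis) called higher (upward) or lower (downward) in RT112, with dashed lines at the share over all autosomes. Chromosome 16 reaches 23.6% higher, and chromosome 15 reaches 23.4% lower.

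The comparison was set beside that of RT112 R1 no PD with RT4 R1 no PD, which shares no array with it. There, 2116 genes were higher in RT112 (9.86%) and 2489 lower (11.6%). Of the 4036 genes called between the parental lines, 3858 had the same sign in R1 no PD, and 2641 were called with that sign, 1190 of them higher and 1451 lower. The 4036 were selected for their parental difference, and the share of all genes with the same sign is not given here. With opposite signs, 15 were called. Over the 21468 genes the line differences had a Pearson correlation of 0.81, given as a description, since genes of 1 array set are not independent. In the whole series, 1518 genes (7.07%) had all 24 RT112 arrays on 1 side of all 9 RT4 arrays. Of these, 1308 were called between the untreated parental lines, 579 higher and 729 lower in RT112. The parental arrays are part of both counts, so this overlap was largely set in advance and is given as a description. KRT13, GPNMB, CA12, CCND2 and CAV1 were among these 1308 genes.

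The line difference itself was tested for change, as that of R1 no PD minus that of the parental lines over 12 arrays. It changed at 463 genes (2.16%), 258 upward and 205 downward, and 291 of the 463 were among the 4036. FABP4 turned, from 3.16 between the parental lines to -1.60 in R1 no PD (change -4.76, adjusted p = 0.00295). ASS1 went from -5.05 to -1.23 (adjusted p = 0.00399) and ALDH1A1 from -3.59 to -0.15 (adjusted p = 4.07e-04), so these differences were smaller in R1 no PD. At CXCL10 the difference was larger in R1 no PD, -9.85 against -4.94 (adjusted p = 2.18e-05), and at OAS2 -8.51 against -6.44 (adjusted p = 0.00114). Of the 48 interferon-stimulated genes, 40 were lower and 2 higher in RT112 R1 no PD, and the line difference changed at 15. The mean of the list in RT4 R1 no PD lay between 9.99 and 10.33. Of the 49 proliferation genes, 18 were higher and 0 lower, and the line difference changed at 0 by limma (9 at an unadjusted p under 0.05). UPK1A went from 4.13 to -1.08, and this change did not pass the test (adjusted p = 0.0734). EGFR (0.21) and MET (-0.03) were not called in R1 no PD, and the change of either line difference did not pass the test (adjusted p = 0.014 and 0.0263).

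**Figure D5:**
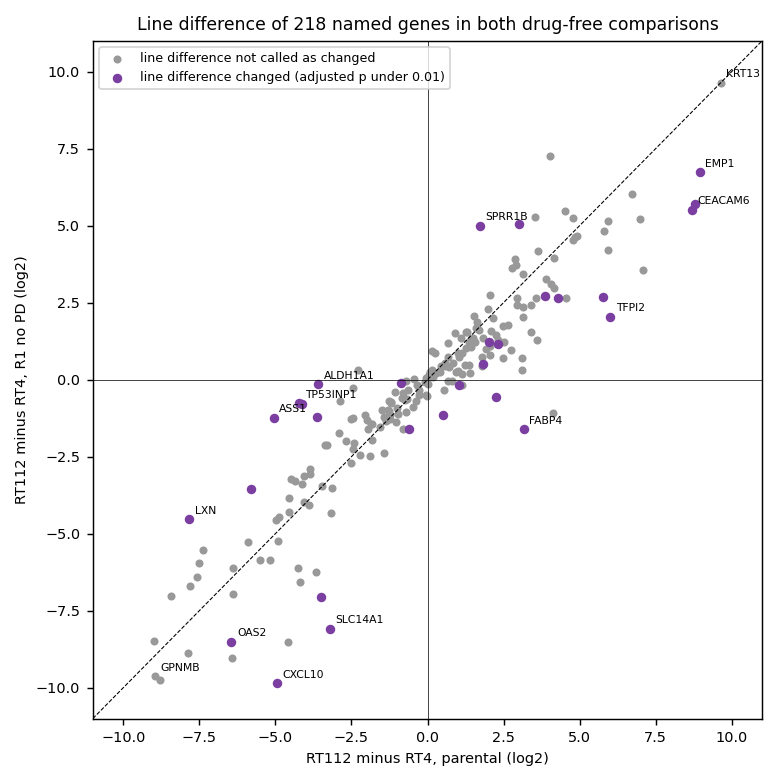
Difference RT112 minus RT4 (log2) between the parental lines (horizontal axis) and between R1 no PD (vertical axis) for the genes named, with the line of equality dashed. Each point is a gene, grey, or purple where the line difference changed. KRT13 lies at 9.65 and 9.64, while FABP4 lies at 3.16 and -1.60.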

How the data were processed

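RNA of all 33 samples was hybridised to Affymetrix Human Transcriptome Array 2.0, with 3 arrays in each of 11 conditions, 24 of RT112 and 9 of RT4. The authors made the deposited log2 signals with RMA, through Affymetrix Expression Console per the labels and Affymetrix Power Tools per the methods, with versions not given in the sources used here. RMA subtracts background within each array and quantile-normalizes across arrays, so only relative levels can be compared, and the number of arrays limits precision. Of 70523 probe sets, 67528 were transcript clusters, 23781 of them with 1 gene symbol, 1543 with several and 42204 with none. For 479 symbols on more than 1 probe set, that of highest mean signal over the 33 arrays was used. Gene IDs matched RefSeq GRCh38.p14 for 20294 genes, and 48 genes whose chromosome differed there were left out of the autosomal set.

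Groups came from the sample labels. Each pair of groups was compared with limma 3.58.1 (R 4.3.3, statmod 1.5.0) on the 6 arrays concerned, 2-sided, with Benjamini-Hochberg adjustment over 22465 genes and the threshold of 0.01 that the study's methods give for limma, and the change of the line difference over 12 arrays. Fits were tested on simulated data. No pairing of replicate numbers was used. Alternatives were 1 fit of all 33 arrays, use of every probe set, removal of genes under the 30th percentile of mean signal, another variance prior, renewed quantile normalization, centring on array medians, the replicate block, each array left out, adjustment over autosomal genes, the methods' t-test and a log2 difference of at least 1.

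Genes named are the 10 called genes with the largest difference in each direction, up to 4 called members with the largest difference in each of 42 lists (the largest member where none was called), every FGF receptor and urothelial factor measured, and 15 genes named in the study. Of those 15, CD24 was not among the autosomal genes analysed and has no value here. Genes named after their values were seen are so described. The members and lists were chosen with earlier results of these data known. Lists are described by counts and medians, with no test.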

Additional observations from a re-analysis of the deposited data

Results flagged for a closer look

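At 29 of the 218 named genes the line difference, RT112 minus RT4, differed between the R1 no PD arrays and the untreated parental arrays (limma over 12 arrays, adjusted p under 0.01). Most named genes were chosen for their parental difference, which is also part of this change, so their number is not set against that over all genes. Values below are the R1 no PD difference minus the parental one, on the log2 scale.

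The change was negative at 19 genes. Among interferon-stimulated genes and chemokines it was -4.91 for CXCL10, -3.55 for IFI44L, -2.81 for BST2 and -2.07 for OAS2. The difference at BST2 turned, from 2.24 between the parental lines to -0.57 in R1 no PD. For surface and transport genes the change was -4.88 for SLC14A1, -3.18 for CEACAM6, -3.09 for LAPTM5, -2.22 for EMP1 and -1.15 for ITGB5. It was -4.76 for FABP4, -3.97 for TFPI2, -3.08 for CYP24A1, -1.66 for FOXQ1, -1.62 for KRT80, -1.30 for ENG, -1.20 for ACTA2, -1.15 for MEST, -0.99 for HLA-G and -0.79 for S100A10.

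The change was positive at 10 genes. It was 3.81 for ASS1, 3.44 for ALDH1A1, 3.44 for TP53INP1, 3.31 for MAL, 3.30 for LXN, 3.26 for SPRR1B, 2.42 for ACSL1, 2.26 for UCP2, 2.04 for S100A14 and 0.79 for PAX8. The parental differences of ASS1, ALDH1A1, TP53INP1, MAL, LXN, ACSL1, UCP2 and PAX8 were below 0, so at these the lines lay closer together in R1 no PD.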

How the results depend on the processing

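None of the 177 called gene differences changed direction under the alternatives run, while differences and list medians near 0 changed sign under some. The methods' t-test called 625 genes higher and 861 lower in untreated RT112, and 739 and 940 in R1 no PD, after adjustment, and at an unadjusted p under 0.05 it called 3774 and 3838, and 3793 and 3989. A log2 difference of at least 1 left 914 and 1288, and 940 and 1404 in R1 no PD. Replicate numbers did not pair the samples (correlations of deviations 0.07, -0.14 and 0.08), and the replicate block gave 1202 higher and 1586 lower. The fit of all 33 arrays gave 819 changed line differences against 463. Leaving out 1 array gave 930 to 2383 higher and 1308 to 2895 lower, the upper ends without RT4 replicate 1, and 1096, 1052 and 930 higher without RT112 replicates 1, 2 and 3. Lower were 1357, 1308 and 1338 without these, and 1160 were higher without RT4 replicate 3. In R1 no PD the ranges were 1333 to 1814 and 1764 to 2213, with 1333 without RT4 R1 replicate 3, and changed line differences 191 to 675, the highest without RT4 parental replicate 1. Changed line differences numbered 273, 191 and 196 without RT112 parental replicates 1, 2 and 3, 272, 223 and 232 without those of RT4 R1, and 270 and 294 without RT112 R1 replicates 1 and 3. These fits rest on fewer arrays, and the cause was not tested further. Signal over background was not tested, which limits differences near the array medians.

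Of the 177 named genes that were called, 91 fell short of the threshold under the methods' t-test, 18 under the replicate block and 16 at a log2 difference of at least 1. Without 1 array other than RT4 replicate 1, 26 to 42 of them fell short. Without RT4 replicate 1, 1 fell short, and 9 named genes that were not called with all arrays newly passed. Of 336 list medians recomputed, 28 moved by more than the spread between arrays.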
